A study of Homo sapiens with 18 samples.

Results

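The 9 genes described here encode enzymes that make, salvage or degrade the deoxynucleoside triphosphates (dNTPs) from which DNA is copied in S phase: RRM1, RRM2, TYMS, DUT, DTYMK, TK1, DCK, CTPS1 and SAMHD1. They were taken by name, as 9 of the 20705 gene rows of an RNA-seq count table, and all 9 rows were present. The table held 18 poly-A selected libraries in 9 groups of 2 from the human melanoma cell lines CHL1 (wild type for BRAF and NRAS, mutant for p53) and A375 (mutant for BRAF, wild type for p53). CHL1 cells received DMSO for 72 hours (control), 1 µM palbociclib, an inhibitor of the kinases CDK4 and CDK6 (CDK4/6i), for 72 hours or 6 days, or 500 nM GSK3326595, an inhibitor of the arginine methyltransferase PRMT5 (PRMT5i), for 72 hours. A375 cells received the same treatments and had DMSO controls at both 72 hours and 6 days. CHL1 cells treated for 6 days were compared with the 72-hour control, the CHL1 control analysed here, so time and treatment cannot be told apart in that comparison. Each line is a single cell line, and CHL1 and A375 were grown in different media (DMEM and RPMI-1640), so line and medium cannot be told apart. The study's methods describe 2 replicates grown for a condition but not when or how separately, so the p-values measure the spread between these libraries, which may be technical. The A375 libraries of 72 hours and of 6 days carry names of different library sets, with 16213475 to 19598242 and 29199890 to 36036772 counts, so time and library set cannot be told apart in A375. The CHL1 libraries carry names of the same set as the A375 libraries of 6 days. Line and library set therefore cannot be told apart in the comparisons of the lines at 72 hours.

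Deoxynucleotides are made in the cell mainly by ribonucleotide reductase, which joins a large subunit, RRM1, to a small subunit, either the S phase form RRM2 or the p53-inducible form RRM2B. Thymidylate, the building block particular to DNA, is made from dUMP by thymidylate synthase, TYMS, and is then phosphorylated by the kinase DTYMK, while the dUTPase DUT supplies dUMP and keeps uracil out of DNA. TK1 and DCK salvage thymidine and deoxycytidine, CTPS1 makes CTP from UTP, and SAMHD1 degrades dNTPs. Several of these genes are known targets of E2F, the transcription factor that is held in check by RB until CDK4 and CDK6 phosphorylate RB.

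The promoters of all 9 genes were found in RefSeq (GRCh38.p14), with 300 bases a window, 250 before and 50 after each annotated transcription start, and several starts for some genes. Each window was searched on both strands for 4 short motifs. The E2F core was searched as TTGGCGC. The other spelling of the E2F core that was searched was TTCCCGC. The cell cycle homology region, or CHR, was searched as TTTGAA. Its second spelling was TTCGAA. The CCAAT box is the site of the factor NF-Y and was searched as these letters. The GC box was searched as GGGCGG. An E2F core stood in a window of 6 of the 9 genes, namely RRM1, RRM2, TYMS, DUT, TK1 and DCK, against 11.0% of the 27305 genes with such windows. CHR letters stood in 3 of the 9 genes (RRM1, DUT and DTYMK) against 19.5%, CCAAT letters in 5 (RRM1, RRM2, DTYMK, TK1 and SAMHD1) against 39.7%, and GC box letters in 7 against 48.3%. Genes with several windows have more chances of a match, and a match of so few letters is a description of the window, not of binding. The 250 bases before the start are printed for 4 genes that fell under CDK4/6i, as examples that hold an E2F core or CCAAT boxes, and for SAMHD1, which was not called. Capitals mark E2F core, CHR and CCAAT letters on either strand. The windows are RRM2 start 1 (chr2:10122489-10122738, plus strand), TYMS (chr18:657403-657652, plus), DUT start 4 (chr15:48331947-48332196, plus), TK1 start 2 (chr17:78187053-78187302, minus) and SAMHD1 (chr20:36951709-36951958, minus).
RRM2: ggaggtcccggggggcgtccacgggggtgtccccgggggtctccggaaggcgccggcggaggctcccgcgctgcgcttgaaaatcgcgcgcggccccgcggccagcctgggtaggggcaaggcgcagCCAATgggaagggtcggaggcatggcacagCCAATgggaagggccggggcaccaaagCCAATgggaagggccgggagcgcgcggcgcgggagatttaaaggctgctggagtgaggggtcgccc
TYMS: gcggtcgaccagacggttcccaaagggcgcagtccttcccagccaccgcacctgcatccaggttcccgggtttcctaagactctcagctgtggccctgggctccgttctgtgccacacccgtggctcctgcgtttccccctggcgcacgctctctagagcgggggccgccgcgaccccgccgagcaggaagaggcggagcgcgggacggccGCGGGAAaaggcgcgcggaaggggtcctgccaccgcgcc
DUT: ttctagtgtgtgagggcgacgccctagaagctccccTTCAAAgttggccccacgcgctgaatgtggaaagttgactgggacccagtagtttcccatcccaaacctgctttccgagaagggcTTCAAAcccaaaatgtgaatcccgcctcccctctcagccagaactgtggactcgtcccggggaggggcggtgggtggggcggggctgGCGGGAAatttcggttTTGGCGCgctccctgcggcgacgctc
TK1: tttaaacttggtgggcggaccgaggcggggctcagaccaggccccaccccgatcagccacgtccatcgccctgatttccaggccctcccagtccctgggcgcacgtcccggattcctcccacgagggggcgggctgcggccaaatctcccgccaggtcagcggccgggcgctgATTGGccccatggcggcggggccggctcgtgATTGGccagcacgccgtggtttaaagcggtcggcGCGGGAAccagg
SAMHD1: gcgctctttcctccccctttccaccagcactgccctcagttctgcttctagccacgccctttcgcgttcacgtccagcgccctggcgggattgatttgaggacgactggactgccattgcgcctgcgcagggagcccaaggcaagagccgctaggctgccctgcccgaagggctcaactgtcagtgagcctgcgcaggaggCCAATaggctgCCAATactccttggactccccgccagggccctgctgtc
The RRM2 window holds 3 CCAAT boxes, which begin 123, 93 and 66 bases before the start, and the E2F core of this gene lies in the window of its other start. TYMS has an E2F core 39 bases before its start, DUT has a pair at 42 and 26 bases, and TK1 has an E2F core at 12 bases with CCAAT boxes at 77 and 46. SAMHD1 has CCAAT boxes at 49 and 38 bases and no E2F core letters, and neither CTPS1 nor DTYMK has E2F core letters in its windows.

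**Figure D1:**
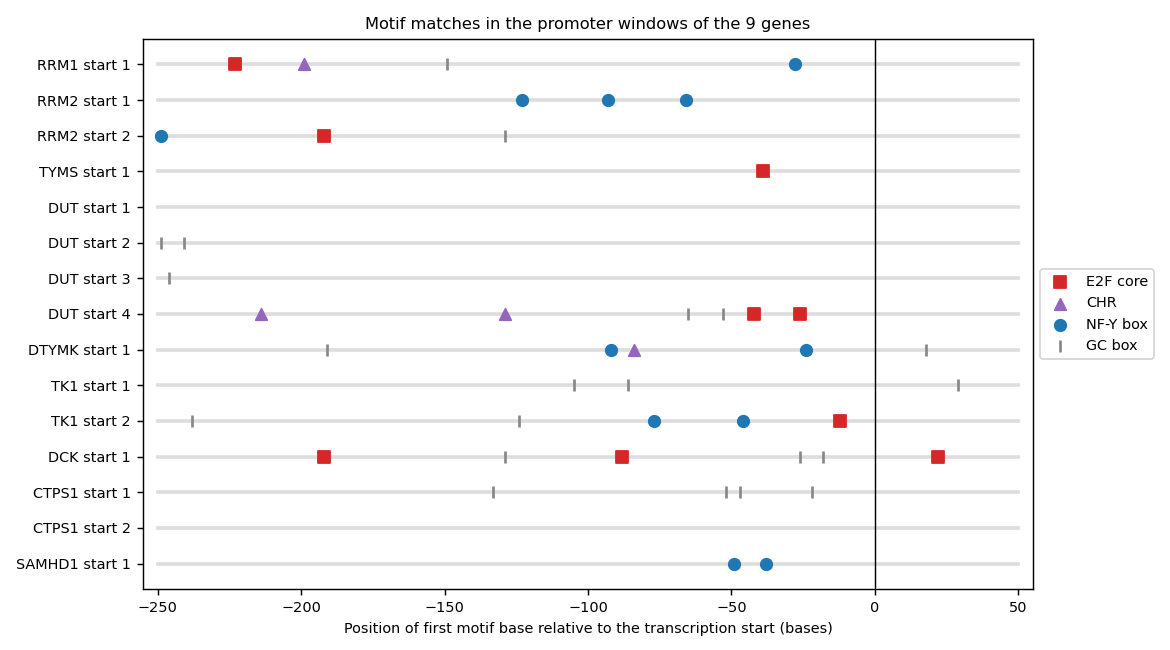
Positions of motif matches (symbols) in each promoter window of the 9 genes, in bases from the annotated start on the horizontal axis and one row per start; NF-Y box is the CCAAT box. E2F core squares appear for RRM1, RRM2, TYMS, DUT, TK1 and DCK, and for DCK they number 3.

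In the build of the counts (GRCh37), RRM1 lies at chr11:4115937-4160162, RRM2 at chr2:10260825-10351851, TYMS at chr18:657653-673578, DUT at chr15:48623208-48635570 and DCK at chr4:71858255-71896631, all on the plus strand with CTPS1 at chr1:41444972-41478237. DTYMK (chr2:242615162-242626359), TK1 (chr17:76170172-76183314) and SAMHD1 (chr20:35518632-35580296) lie on the minus strand. Exons of other genes cover parts of some members: ENOSF1, on the opposite strand, covers 39.9% of the exonic bases of TYMS, the lncRNA DUT-AS1 14.5% of DUT, TLDC2 9.9% of SAMHD1 and MOB1B, on the same strand, 6.4% of DCK. The strand setting of the libraries is not given in the sources used here, so reads of such pairs may not be separated fully.

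Library totals ran from 16213475 to 37424081 counts. Levels are given as CPM, TMM-normalised counts scaled to 1000000 reads a library. Both CHL1 PRMT5i libraries and both A375 6-day control libraries stood apart by GC content: the log2 level of GC-rich genes against GC-poor genes, relative to the line's median library, was -2.49 and -1.98 in the former and -2.27 and -1.12 in the latter, against -0.17 to 0.50 in the other libraries. The transcripts of the members run from 37.8% GC (DCK) to 62.8% (TK1), with DTYMK at 59.3% and the other 6 between 43.2% and 48.9%. Member values that use those 4 libraries are therefore also given after a correction for GC content where it changed a call or the size noticeably. In CHL1 the trend stood in the PRMT5i libraries alone, so drug and trend cannot be told apart in comparisons that use them. The correction may also remove a drug response that goes with GC content, which was not tested. Neither the counted nor the corrected values are therefore taken as the truer ones there. Of the melanocyte markers, the lineage factor MITF was at 63.8 CPM or more in every library, and DCT was at 36.3 CPM or more in every CHL1 library but at 1.79 CPM or less in A375. PMEL, TYR and TYRP1 were low in both lines, and SOX10 and MLANA were not analysed here. The blood marker PTPRC was at 7.41 to 16.8 CPM in CHL1 and at 0.588 CPM or less in A375, and its part in any result was not tested. Of the 4 markers of other cell types in the table, 3 were called higher in A375 than in CHL1 72-hour controls and 1 lower. Their log2 differences ran from -5.66 to 5.70 (median 2.74), where 29.6% of all genes were higher and 29.3% lower. The markers also moved with treatment, and with time in the A375 controls. Of 6 melanocyte markers in the table, 3 were higher in A375 CDK4/6i at 72 hours (6.22% of all genes), with a median log2 fold change of 1.49. At 6 days 3 were higher (21.8%) and 1 lower (21.3%), and 1 was higher in A375 PRMT5i (0.874%). Between the A375 controls 4 were higher at 6 days than at 72 hours (24%), with a median log2 difference of 1.91, and 0 were lower (23.8%). In CHL1, 1 was higher (2.27% of all genes) and 1 lower (2.72%) with 72 hours of CDK4/6i, and 2 were higher at 6 days (8.83%). With PRMT5i in CHL1, 3 were higher (26.4%) and 1 lower (27.6%). Of 4 markers of other cell types, 1 was higher in each of 3 treatment comparisons, and none in the other 3. These were A375 CDK4/6i at 72 hours (6.22% of all genes), CHL1 CDK4/6i at 6 days (8.83%) and CHL1 PRMT5i (26.4%). Between the A375 controls 1 was higher at 6 days (24%). Their part in the results was not tested.

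On a per-length scale (CPM per kilobase of the longest transcript), RRM2 was the highest member in CHL1 control libraries, at 101 and 82.7, and SAMHD1 the lowest, at 3.84 and 4.53. The order in these controls was RRM2, DTYMK, TK1, RRM1, CTPS1, DUT, DCK, TYMS and SAMHD1. The libraries of RRM2 and DTYMK overlapped in level (DTYMK 86.2 and 75.6), as did those of TK1 (54.8 and 48.7) and RRM1 (49.1 and 42.2), and all other neighbours in this order were separate. In A375 72-hour controls TK1 was highest per kilobase (79.6 and 95.4), its libraries overlapped those of RRM2 (58.3 and 86.6), and SAMHD1 was again lowest (4.45 and 4.69). Between the 72-hour controls of the lines, DUT (log2 difference 0.71 ± 0.20 SE, adjusted p = 0.00422) and TK1 (0.76 ± 0.24, adjusted p = 0.0117) were higher in A375, and DCK was lower (-1.20 ± 0.30, adjusted p = 0.00212, edgeR quasi-likelihood test). In that comparison 29.6% of all genes were called higher and 29.3% lower, and line, medium and library set cannot be told apart. Without A375 control replicate 2 the DUT and TK1 calls were lost (0.55 and 0.59, adjusted p = 0.0686 and 0.104), and TK1 also without CHL1 control replicate 2 (0.65, adjusted p = 0.0912).

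**Figure D2:**
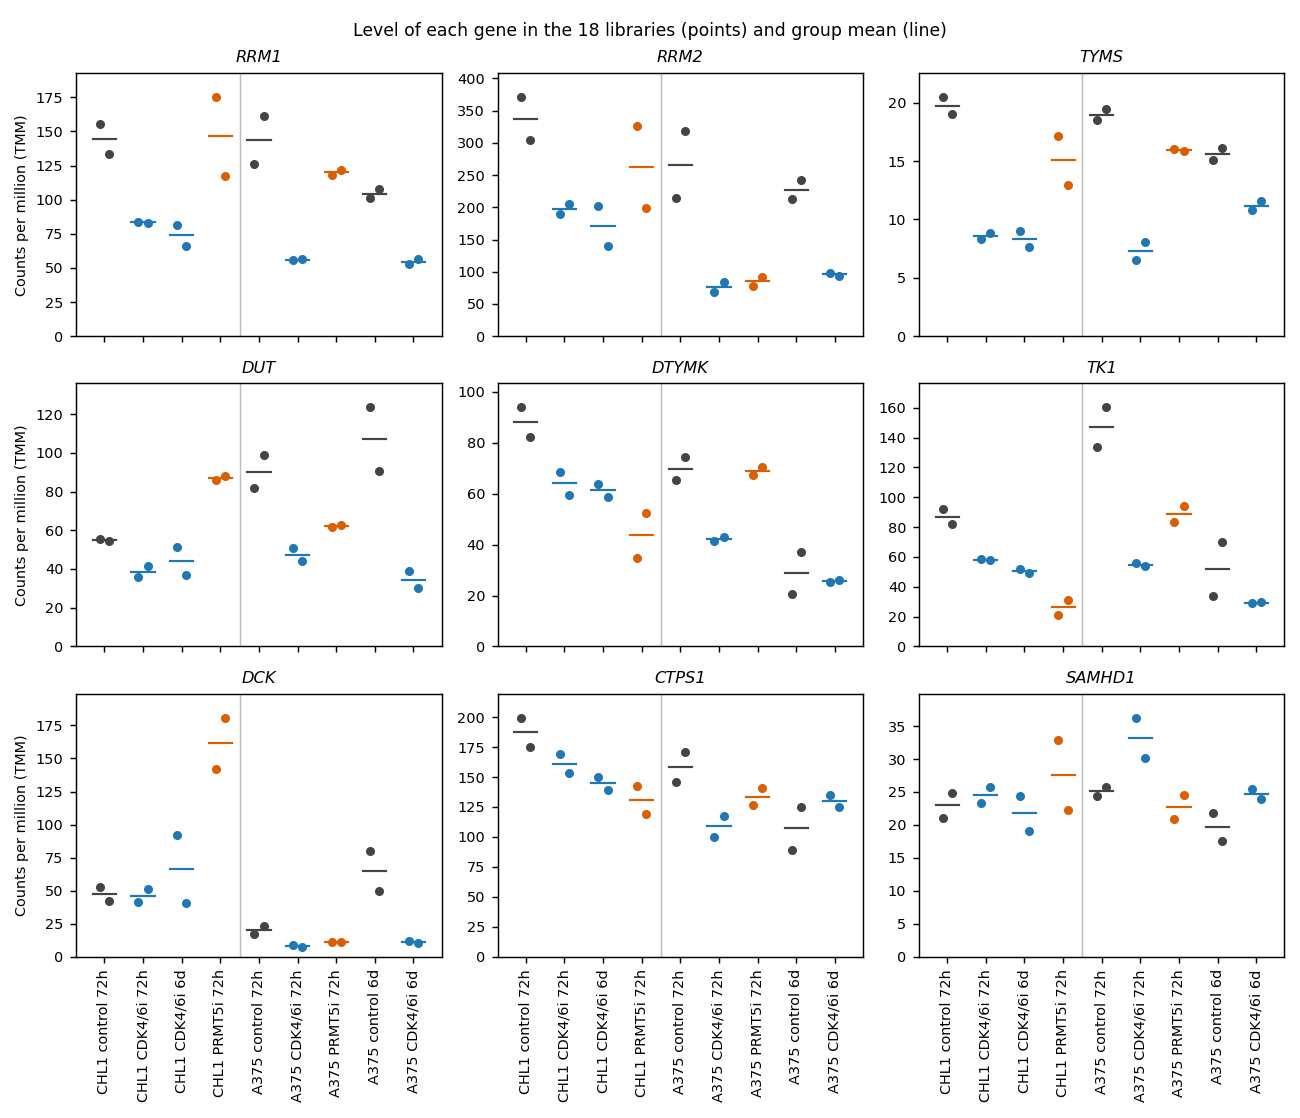
TMM-normalised CPM of each of the 9 genes in all 18 libraries (points, 2 a group) with the group mean (line), grey for control, blue for CDK4/6i and orange for PRMT5i. RRM2 in A375 lies at 69.3 to 97.6 CPM in all 6 treated libraries, below the 4 control libraries at 213 to 318, while SAMHD1 lies between 17.5 and 36.3 in all 18.

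The comparisons with control ask which of these enzymes change when CDK4/6 or PRMT5 is inhibited. In bulk samples, fewer cells in S phase and less RNA per cell cannot be told apart. Calls were made with the edgeR quasi-likelihood test at a Benjamini-Hochberg adjusted p below 0.05 over all genes. The 3 CHL1 comparisons share their control libraries, as do both 72-hour comparisons of A375. In A375 CDK4/6i, 7 of the 9 members fell at 72 hours, against 7.11% of all 20705 genes called lower, and 5 fell at 6 days, against 21.3%. In CHL1, 2 fell at 72 hours (2.72% of all genes) and 4 at 6 days (7.8%). The CHL1 72-hour count was 4 when libraries with a GC trend were left out, which added RRM2 and TK1 (adjusted p = 0.0266 and 0.0168). In fits without those libraries 10 counts over all genes moved clearly and 6 did not, so 2.72% is not the share to set beside this 4. No member was called higher by edgeR under CDK4/6i, none passed an unadjusted p of 0.05 in that direction and DESeq2 called none, where 6.22% and 21.8% of all genes were called higher in A375 at 72 hours and 6 days and 2.27% and 8.83% in CHL1. PRMT5i lowered 1 member in A375 (1.74% of all genes) and raised none (0.874%), and none was higher at an unadjusted p of 0.05 or by DESeq2. At an unadjusted p of 0.05, 4 were lower, and DESeq2 called 2 lower. The count of 1 lower was 4 when the fit used only the 6 A375 libraries of 72 hours, which added DUT, TK1 and DCK (adjusted p = 0.00650, 0.000919 and 0.00434), and 3 with the GC correction. The shares of all genes given so far are those of the fit of all libraries of a line. With only these 6 libraries the counts over all genes moved as well, so 1.74% is not the share for that fit. The 1.74% does not come from the GC-corrected fit either. Leaving either 6-day control library out of the A375 fit added the same 3 genes. Same-numbered A375 libraries of 72 hours deviated together, and with the replicate number as a block in the fit of those 6 libraries the count was 6 in A375 PRMT5i (RRM1, RRM2, DUT, TK1, DCK and CTPS1, against 15.4% of all genes lower). In A375 CDK4/6i at 72 hours the same block gave 8 lower, with CTPS1 added (21.7%), and 1 higher, SAMHD1 (20.6%). In CHL1, PRMT5i lowered 3 (27.6%) and raised 2 (26.4%), in a comparison whose treated libraries carry the GC trend. The median log2 fold change of the 9 members was -1.42 and -0.83 in A375 CDK4/6i at 72 hours and 6 days, -0.51 and -0.51 in CHL1 CDK4/6i, -0.27 in A375 PRMT5i and -0.34 in CHL1 PRMT5i, where the median of all genes was between 0 and 0.10.

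The positions of the libraries were also counted, with no test. With 72 hours of CDK4/6i in A375 both treated libraries lay below both controls for 8 members (29.2% of all genes) and above them for SAMHD1 (37.1%). At 6 days the numbers were 6 below (30.5%) and 1 above (37.6%), and SAMHD1 was again the one above. In CHL1, 7 members lay below at 72 hours (27.9%) and 7 at 6 days (29.5%), and none above (30.1% and 31.3%). With PRMT5i, 7 lay below in A375 (26.2%) and none above (26.9%), while in CHL1 4 lay below (39.6%) and 2 above (36.2%), which were DUT and DCK.

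**Figure D3:**
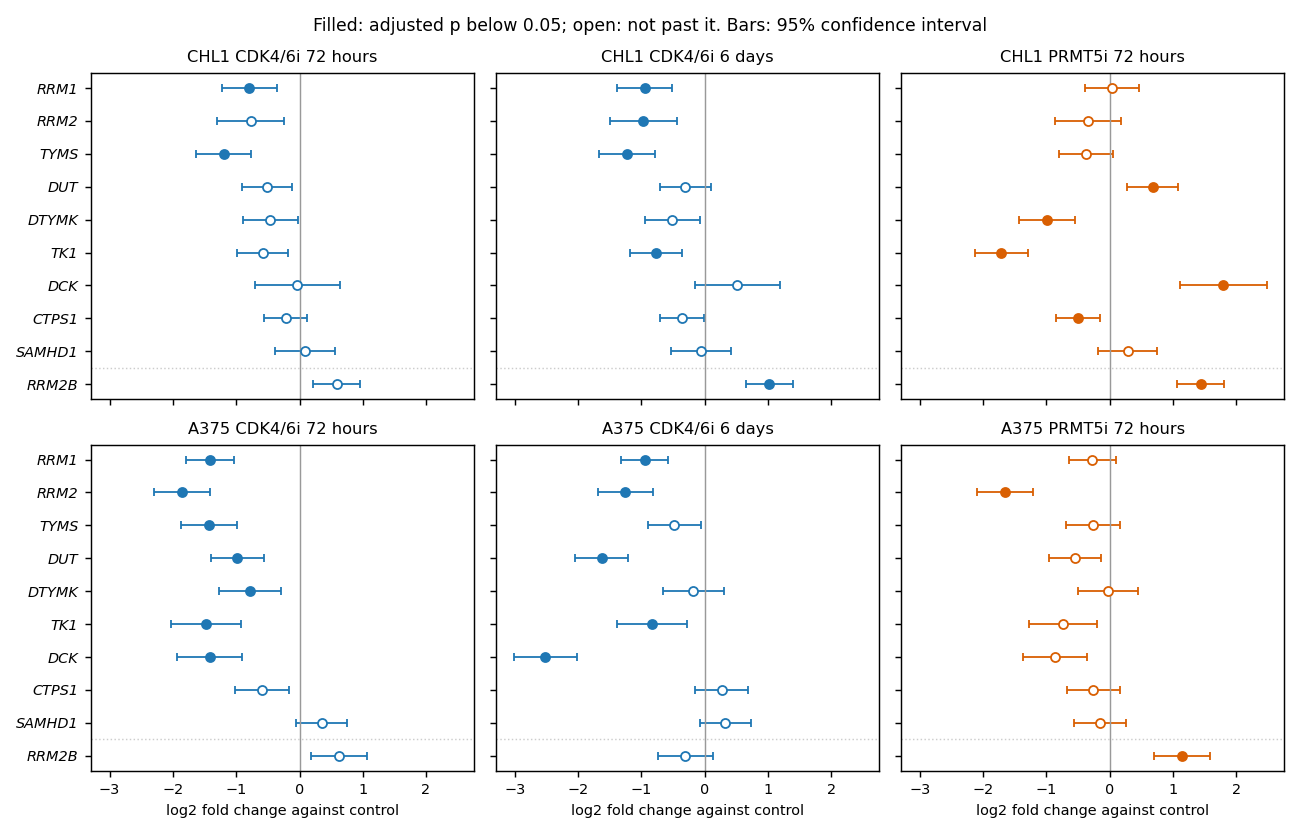
Log2 fold change of each member and of RRM2B (below the dotted line) against its control in the 6 treatment comparisons, with the 95% confidence interval of the fit; filled points passed an adjusted p of 0.05. In A375 CDK4/6i at 72 hours 7 members are filled on the lower side, and under A375 PRMT5i RRM2 is the filled member, at -1.66.

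RRM2, the S phase small subunit of ribonucleotide reductase, was the member that fell under both drugs in A375. It was at 214 and 318 CPM in A375 72-hour controls, at 69.3 and 83.4 after 72 hours of CDK4/6i and at 78.4 and 91.9 after PRMT5i. After 6 days it was at 97.6 and 93.9 with CDK4/6i and at 213 and 242 with DMSO. No treated A375 library reached the level of any A375 control. The fall was 3.63-fold with CDK4/6i at 72 hours (log2 fold change -1.86 ± 0.21 SE, adjusted p = 4.98e-05), 2.38-fold at 6 days (-1.25 ± 0.21, adjusted p = 0.000281) and 3.15-fold with PRMT5i (-1.66 ± 0.21, adjusted p = 0.00117; edgeR). Without PRMT5i replicate 1 the PRMT5i fall was -1.56 with an adjusted p of 0.0506. In CHL1, RRM2 was at 371 and 304 CPM in controls, at 190 and 205 after 72 hours of CDK4/6i and at 201 and 140 after 6 days. Both treated groups lay below the control, and the 6-day fall passed the test (-0.97 ± 0.24, adjusted p = 0.0184, against -0.77 ± 0.24, adjusted p = 0.0888 at 72 hours). Leaving out control replicate 1, control replicate 2 or CDK4/6i replicate 2 ended the 6-day call (-0.82, -1.10 and -0.72, adjusted p = 0.139, 0.0685 and 0.122), and the difference between the 2 times did not pass it (-0.19 ± 0.24, adjusted p = 0.904). The CHL1 PRMT5i libraries were at 326 and 199 CPM and overlapped the control (-0.34 ± 0.24, adjusted p = 0.254, -0.49, adjusted p = 0.114 with the GC correction, and -0.74, adjusted p = 0.0253 without PRMT5i replicate 1).

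RRM1, the large subunit, fell under CDK4/6i in both lines and did not pass the test under PRMT5i. In A375 it was at 126 and 162 CPM in 72-hour controls, at 55.5 and 56.4 with CDK4/6i and at 118 and 122 with PRMT5i. The fall with CDK4/6i was 2.68-fold at 72 hours (log2 fold change -1.42 ± 0.18, adjusted p = 9.48e-05) and 1.92-fold at 6 days (-0.94 ± 0.17, adjusted p = 0.000626, and -0.72 with the GC correction). With PRMT5i the log2 fold change was -0.27 ± 0.17 (adjusted p = 0.477, and 0.00899 with the replicate block). In CHL1, RRM1 was at 156 and 133 CPM in controls, at 83.8 and 83.0 after 72 hours of CDK4/6i and at 81.6 and 66.3 after 6 days. The falls were -0.80 ± 0.20 (adjusted p = 0.0430) and -0.95 ± 0.20 (adjusted p = 0.00863). The 72-hour call was lost on leaving out any one of the 4 libraries compared (-0.68 to -0.90, adjusted p = 0.179 to 0.273). The 6-day call was lost without control replicate 1 (-0.84, adjusted p = 0.0824), control replicate 2 (-1.05, adjusted p = 0.0501) or CDK4/6i replicate 2 (-0.80, adjusted p = 0.0597). The CHL1 PRMT5i libraries, at 175 and 118 CPM, lay on both sides of the control (0.04 ± 0.20 as counted, adjusted p = 0.916). With the GC correction the value was -0.41 (adjusted p = 0.0842), and with the correction and the replicate block -0.42 (adjusted p = 0.0256), past the test. The number of RRM2 reads per RRM1 read in A375 was 1.70 and 1.97 in 72-hour controls, 1.25 and 1.48 with CDK4/6i and 0.665 and 0.753 with PRMT5i. In CHL1 the ratio was 2.38 and 2.27 in controls, 2.11 to 2.47 in the 4 CDK4/6i libraries and 1.86 and 1.69 with PRMT5i.

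RRM2B, the p53-inducible small subunit and not one of the 9, rose where RRM2 fell in A375 PRMT5i and in CHL1 CDK4/6i at 6 days. It was at 54.4 and 61.1 CPM in A375 72-hour controls, at 94.8 and 89.9 with CDK4/6i and at 122 and 136 with PRMT5i. The rise with PRMT5i passed the test (log2 fold change 1.14 ± 0.21, adjusted p = 0.0107), and the CDK4/6i value did not (0.62 ± 0.21, adjusted p = 0.0617). The latter passed in the fit of the 6 libraries of 72 hours (0.62, adjusted p = 0.000651), without the libraries with a GC trend (adjusted p = 0.00182), with the GC correction (0.95, adjusted p = 0.000278) and with the replicate block (adjusted p = 9.51e-11). The PRMT5i call was lost on leaving out any one of the 4 libraries compared (1.07 to 1.22, adjusted p = 0.0887 to 0.165). In CHL1, which has mutant p53, RRM2B was at 57.6 and 53.1 CPM in controls and at 126 and 96.3 after 6 days of CDK4/6i (1.02 ± 0.17, adjusted p = 0.00287). Without control replicate 2 that value was 0.96 (adjusted p = 0.0553). The CHL1 PRMT5i libraries were at 148 and 148 CPM, with a value of 1.44 ± 0.17 (adjusted p = 0.000106) as counted and 0.15 with the GC correction (adjusted p = 0.337). At 6 days in A375 the value was -0.30 ± 0.21 (adjusted p = 0.251) as counted and 0.84 with the GC correction (adjusted p = 0.000338). RRM2 reads outnumbered RRM2B reads by 3.93 and 5.20 to 1 in A375 72-hour controls, while the ratio was 0.730 and 0.928 with CDK4/6i and 0.644 and 0.674 with PRMT5i. At 6 days it was 1.29 and 2.44 with DMSO and 0.996 and 0.818 with CDK4/6i, so that the controls of the later time, which carry the GC trend, lay closer to the treated libraries. These ratios are of reads, not adjusted for transcript length. Per kilobase, RRM2 was at 18.9 and 22.7 and RRM2B at 19.9 and 18.8 in A375 CDK4/6i at 72 hours. With PRMT5i they were at 21.3 and 25.0 and at 25.5 and 28.5, and with 6 days of CDK4/6i at 26.6 and 25.6 and at 20.5 and 24.1.

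TYMS, the enzyme that makes thymidylate, fell under CDK4/6i in both lines at 72 hours. It was at 20.5 and 19.0 CPM in CHL1 controls, at 8.36 and 8.88 after 72 hours of CDK4/6i and at 9.00 and 7.63 after 6 days. In A375 it was at 18.5 and 19.5 CPM in 72-hour controls and at 6.55 and 8.06 with CDK4/6i. In both lines the treated and control libraries were well apart. The falls were 2.29-fold in CHL1 at 72 hours (log2 fold change -1.20 ± 0.20, adjusted p = 0.00730), 2.35-fold in CHL1 at 6 days (-1.23 ± 0.20, adjusted p = 0.00262) and 2.70-fold in A375 at 72 hours (-1.44 ± 0.21, adjusted p = 0.000323). The CHL1 72-hour call was lost on leaving out any one of the 4 libraries compared, with log2 fold changes of -1.25 to -1.14 and adjusted p = 0.0736 to 0.113. At 6 days in A375 it was at 10.8 and 11.5 CPM against 15.1 and 16.1, below the control in both libraries, at -0.48 ± 0.20 (adjusted p = 0.0613) as counted and -0.73 (adjusted p = 0.00266) with the GC correction. Under PRMT5i it was at 16.01 and 15.8 CPM in A375 (-0.27 ± 0.20) and at 17.1 and 12.98 in CHL1 (-0.37 ± 0.20, and -0.15 with the GC correction), and neither passed the test. Without PRMT5i replicate 1 the CHL1 value was -0.58 (adjusted p = 0.0288), and without A375 6-day control replicate 1 the A375 6-day CDK4/6i value was -0.56 (adjusted p = 0.0245). ENOSF1, whose exons overlap TYMS on the other strand, was at -0.68 ± 0.19 in A375 CDK4/6i at 72 hours (adjusted p = 0.0253) and 0.14 ± 0.19 at 6 days. In CHL1 CDK4/6i it was at -0.56 ± 0.16 at 72 hours (adjusted p = 0.0720) and -0.67 ± 0.17 at 6 days (adjusted p = 0.0180). With PRMT5i it was called lower in CHL1 (-0.60 ± 0.16, adjusted p = 0.00860), where TYMS was not, and was at -0.23 ± 0.19 in A375. Its part in the TYMS values was not tested.

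DUT, the dUTPase, fell in A375 and not past the test in CHL1 under CDK4/6i. In A375 it was at 82.0 and 98.7 CPM in 72-hour controls and at 50.9 and 43.9 with CDK4/6i (log2 fold change -0.99 ± 0.20, adjusted p = 0.00375). This call was lost without control replicate 2 (-0.83, adjusted p = 0.0826) or CDK4/6i replicate 2 (-0.88, adjusted p = 0.0831). At 6 days it was at 123 and 90.5 CPM with DMSO and at 38.9 and 30.2 with CDK4/6i, a fall of 3.09-fold (-1.63 ± 0.20, adjusted p = 2.86e-05), and -1.46 with the GC correction. The 2 groups did not overlap at either time. In CHL1 it went from 55.5 and 54.6 CPM to 35.9 and 41.4 at 72 hours (-0.51 ± 0.18, adjusted p = 0.135) and to 51.3 and 36.8 at 6 days (-0.31 ± 0.18, adjusted p = 0.287). Under PRMT5i, DUT was at 85.7 and 88.1 CPM in CHL1, above both controls (0.68 ± 0.18, adjusted p = 0.00772), and at 61.9 and 62.8 in A375, below both controls (-0.55 ± 0.20, adjusted p = 0.165, and 3.06e-08 with the replicate block). The CHL1 rise was 0.33 with the GC correction (adjusted p = 0.124). It was also lost without control replicate 1 (0.69, adjusted p = 0.0511) or replicate 2 (0.67, adjusted p = 0.0554).

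DTYMK, the kinase of the next step, fell in A375 with 72 hours of CDK4/6i, from 65.2 and 74.2 CPM to 41.5 and 43.0 (log2 fold change -0.78 ± 0.23, adjusted p = 0.0341). This call was lost on leaving out any one of the 8 A375 libraries other than the 6-day controls (-0.66 to -0.87, adjusted p = 0.0503 to 0.216). In A375 at 6 days it was at 20.7 and 37.04 CPM with DMSO and 25.2 and 26.2 with CDK4/6i, so that the control libraries lay on both sides of the treated ones (-0.18 ± 0.23, adjusted p = 0.556, and -0.79 with the GC correction, adjusted p = 0.000583). Without control replicate 1 the value was -0.56 (adjusted p = 0.00447) and without control replicate 2 it was 0.34 (adjusted p = 0.0450), of opposite sign. In CHL1 CDK4/6i it was below control in both libraries at both times without passing the test (-0.46 ± 0.20 at 72 hours and -0.51 ± 0.20 at 6 days), and the 6-day value passed it when either PRMT5i library was left out of the fit (adjusted p = 0.0225 and 0.0224). In CHL1 PRMT5i it was at 34.9 and 52.6 CPM against 93.9 and 82.4 in controls, called lower at -0.99 ± 0.20 (adjusted p = 0.00134). The same comparison gave 0.22 (adjusted p = 0.188) after the GC correction, of opposite sign. In A375 PRMT5i it was at 67.4 and 70.6 CPM, within the range of the controls (-0.03 ± 0.23).

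TK1, the thymidine kinase of S phase, fell under CDK4/6i in A375 at both times and in CHL1 at 6 days. In A375 it was at 134 and 160 CPM in 72-hour controls and at 55.6 and 54.3 with CDK4/6i, a fall of 2.79-fold (log2 fold change -1.48 ± 0.26, adjusted p = 0.00155). With PRMT5i it was at 83.3 and 94.3 CPM, also below both controls, without passing the test (-0.74 ± 0.26, adjusted p = 0.148, and 1.42e-14 with the replicate block), while the GC-corrected fit of all 10 libraries gave -0.82 (adjusted p = 0.00764). In A375 at 6 days it was at 34.0 and 69.9 CPM with DMSO and at 29.0 and 30.0 with CDK4/6i (-0.83 ± 0.26, adjusted p = 0.0166). That value rests on the second control library: without it the log2 fold change was -0.18 (adjusted p = 0.284), and with the GC correction of both it was -1.41 (adjusted p = 8.15e-05). It was also lost without CDK4/6i replicate 1 (-0.81, adjusted p = 0.0860) or replicate 2 (-0.85, adjusted p = 0.0731). In CHL1, TK1 was at 92.1 and 81.9 CPM in controls, at 58.7 and 57.7 after 72 hours of CDK4/6i (-0.58 ± 0.19, adjusted p = 0.0964) and at 51.7 and 49.2 after 6 days (-0.77 ± 0.19, adjusted p = 0.0161). The 6-day call was lost on leaving out any one of the 4 libraries compared (-0.69 to -0.85, adjusted p = 0.0512 to 0.1298). In CHL1 PRMT5i it was at 21.3 and 31.01 CPM, 3.28-fold below control as counted (-1.71 ± 0.19, adjusted p = 8.38e-05) and at -0.35 with the GC correction (adjusted p = 0.0580).

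DCK, the deoxycytidine kinase, whose transcript has the lowest GC content of the 9, fell under CDK4/6i in A375 at both times. In A375 it was at 17.5 and 23.5 CPM in 72-hour controls, at 8.82 and 7.16 with CDK4/6i (log2 fold change -1.42 ± 0.24, adjusted p = 0.00121) and at 11.4 and 11.3 with PRMT5i (-0.86 ± 0.24, adjusted p = 0.0653, and 1.40e-08 with the replicate block). Both treated groups were below the controls. At 6 days it was at 80.0 and 50.03 CPM with DMSO and at 12.0 and 10.7 with CDK4/6i, a fall of 5.72-fold (-2.52 ± 0.24, adjusted p = 4.69e-06). The GC-corrected fall was -1.67 (adjusted p = 3.28e-05), and the A375 control itself was 3.07-fold higher at 6 days than at 72 hours (1.62 ± 0.23, adjusted p = 8.85e-05, and 0.75 with the GC correction). In CHL1 it was at 52.5 and 41.8 CPM in controls and at 41.1 and 50.9 after 72 hours of CDK4/6i, which overlap (-0.04 ± 0.31). After 6 days the libraries were at 92.3 and 40.4 CPM and also overlapped the control (0.51 ± 0.31, adjusted p = 0.287). Without the second of them the log2 fold change was 1.00 (adjusted p = 0.0215). In CHL1 PRMT5i, DCK was at 142 and 181 CPM, 3.47-fold above control (1.80 ± 0.32, adjusted p = 0.000578), and at 0.73 with the GC correction (adjusted p = 0.0422). MOB1B, which shares 6.4% of DCK's exonic bases on the same strand, gave 1.72 ± 0.24 in that comparison. Where DCK fell in A375 CDK4/6i it was at -0.13 ± 0.23 at 72 hours and at -1.31 ± 0.23 at 6 days (adjusted p = 0.000468), and between the A375 controls it was higher at 6 days (1.77 ± 0.24, adjusted p = 5.01e-05), as DCK was. Its part in the DCK values was not tested.

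CTPS1, the CTP synthase, passed the test in 1 of the 6 treatment comparisons. In A375 it was at 146 and 171 CPM in 72-hour controls, at 100.0 and 118 with CDK4/6i (log2 fold change -0.60 ± 0.20, adjusted p = 0.0595, 0.00181 in the fit of the 6 libraries of 72 hours and 1.55e-10 with the replicate block) and at 126 and 141 with PRMT5i (-0.26 ± 0.20, adjusted p = 0.577, and 0.0124 with the replicate block). In CHL1 it was at 200 and 175 CPM in controls, at 169 and 153 after 72 hours of CDK4/6i (-0.22 ± 0.16) and at 150 and 139 after 6 days (-0.36 ± 0.16, adjusted p = 0.147). All treated 72-hour groups lay below their controls, and the one that passed the test was CHL1 PRMT5i, at 143 and 119 CPM (-0.50 ± 0.16, adjusted p = 0.0186). That value was -0.97 (adjusted p = 0.000399) with the GC correction, a larger fall. The uncorrected call was lost without control replicate 1 (-0.41, adjusted p = 0.154) or without PRMT5i replicate 2 (-0.38, adjusted p = 0.0800). In A375 at 6 days the libraries overlapped, at 135 and 125 CPM with CDK4/6i and 89.4 and 125 with DMSO (0.27 ± 0.20, and 0.50 with the GC correction, adjusted p = 0.0760). Without the second of these controls the log2 fold change was 0.57 (adjusted p = 0.00709).

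SAMHD1, the one enzyme of the set that degrades dNTPs, was not called in any of the 6 treatment comparisons. It was at 24.4 and 25.8 CPM in A375 72-hour controls and at 36.3 and 30.2 with CDK4/6i, above both controls (log2 fold change 0.35 ± 0.19, 95% confidence interval -0.06 to 0.75, adjusted p = 0.257, and 0.00412 with the replicate block). At 6 days it was at 25.5 and 23.9 CPM with CDK4/6i and 21.8 and 17.5 with DMSO (0.33 ± 0.19, adjusted p = 0.173). The GC-corrected fit called both higher, at 0.45 (adjusted p = 0.0289) and 0.47 (adjusted p = 0.0157). In the other 4 comparisons the libraries overlapped the controls, and the values ran from -0.15 to 0.28. In CHL1 controls it was at 21.1 and 24.9 CPM. The CHL1 PRMT5i value, the highest of these at 0.28, was -0.04 with the GC correction (adjusted p = 0.910). Leaving out CHL1 PRMT5i replicate 2 gave 0.53 (adjusted p = 0.0404) in that comparison, and leaving out A375 6-day control replicate 1 gave 0.46 (adjusted p = 0.0453) at 6 days.

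The effect of PRMT5i was then set against that of CDK4/6i at 72 hours within each line, where the control drops out. In A375, RRM1 was 2.21-fold higher (log2 difference 1.15 ± 0.18, adjusted p = 0.00229) and TYMS 2.25-fold higher (1.17 ± 0.21, adjusted p = 0.00526) with PRMT5i than with CDK4/6i, against 2.37% of all genes called higher and 3.09% lower. RRM1 lost the call without CDK4/6i replicate 1 (1.13, adjusted p = 0.0549) or replicate 2 (1.16, adjusted p = 0.0540), and TYMS without any one of the 4 libraries (1.03 to 1.33, adjusted p = 0.0534 to 0.121). In the fit of the 6 A375 libraries of 72 hours, 6 members were called higher, while the counts over all genes moved too and their share is not given here. With the replicate block 7 were higher (all but RRM2 and SAMHD1, against 18.4% of all genes) and SAMHD1 lower (16.3%). RRM2 did not differ past the test (0.20 ± 0.21, 95% confidence interval -0.24 to 0.64, adjusted p = 0.636). Of the other members, DUT, DTYMK, TK1, DCK and CTPS1 were above their CDK4/6i level in both PRMT5i libraries and SAMHD1 was below it, without passing the test of the unblocked fit. In CHL1, 4 members were higher with PRMT5i (RRM1, TYMS, DUT and DCK, at 0.83, 0.83, 1.19 and 1.83) and 2 lower (DTYMK and TK1, at -0.53 and -1.13), against 28.4% and 29.4% of all genes. The DTYMK value was -0.26 without PRMT5i replicate 1 (adjusted p = 0.221) and -0.47 without CDK4/6i replicate 1 (adjusted p = 0.147), and its call was also lost without CDK4/6i replicate 2 or either control. CTPS1 was at -0.28 ± 0.16 (adjusted p = 0.154), below in both libraries. With the GC correction TYMS, DUT and DCK stayed higher (1.01, 0.74 and 0.70), RRM1 was at 0.28 (adjusted p = 0.189), DTYMK and TK1 were higher rather than lower (0.80 and 0.40), and CTPS1 was called lower (-0.86, adjusted p = 0.000352).

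Between the lines, the response to 72 hours of CDK4/6i did not differ past the test for any member, against 0.241% of all genes called lower in A375 and 0.401% higher. RRM2 and DCK had the lowest differences, A375 minus CHL1, at -1.03 ± 0.33 and -1.32 ± 0.43 (adjusted p = 0.212 for each). At an unadjusted p of 0.05, 4 members were lower in A375, and DESeq2 called 0. The larger falls in A375 were therefore not separated from those in CHL1 in this fit, while a fit of the 8 libraries of these 4 groups called 4 members lower in A375. The share of all genes called in that smaller fit is not given here. With the replicate block RRM2 was called lower (-1.10, adjusted p = 0.0454), against 1.13% of all genes. At 6 days the response was lower in A375 for DCK (-3.01 ± 0.42, adjusted p = 0.000185) and DUT (-1.31 ± 0.28, adjusted p = 0.00321) and higher for TYMS (0.77 ± 0.27, adjusted p = 0.0458), against 12.4% and 9.51% of all genes called lower and higher. DCK and DUT kept their calls with the GC correction (-2.13 and -1.30) and TYMS did not (0.44, adjusted p = 0.168). The TYMS call was also lost on leaving out any one of 15 of the 18 libraries (0.66 to 0.89, adjusted p = 0.0562 to 0.142). In the response to PRMT5i, RRM2 (-1.28 ± 0.33, adjusted p = 0.00516), DUT (-1.19 ± 0.28, adjusted p = 0.00244) and DCK (-2.63 ± 0.43, adjusted p = 0.000311) were lower in A375, and DTYMK and TK1 higher (1.00 ± 0.32 and 1.01 ± 0.34), against 18.8% and 22.1% of all genes. RRM2, DUT and DCK stayed lower with the GC correction (-1.14, -0.81 and -1.45), while DTYMK and TK1 turned negative (-0.33 and -0.45, not past the test). Without A375 control replicate 2 the RRM2 difference was -0.93 (adjusted p = 0.0528). The DTYMK and TK1 calls were lost without CHL1 PRMT5i replicate 1 (0.71 and 0.74, adjusted p = 0.102 and 0.133), A375 control replicate 1 or A375 PRMT5i replicate 2, and TK1 also without CHL1 control replicate 1.

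Time was compared within each line. In CHL1 no member differed between 6 days and 72 hours of CDK4/6i, and log2 differences ran from -0.19 (RRM2) to 0.55 (DCK), in a comparison with 3 genes called higher (0.0145% of all genes) and 0% called lower. None of the 9 passed an unadjusted p of 0.05 or was called by DESeq2. In A375 the CDK4/6i response at 6 days minus that at 72 hours ran from -1.10 ± 0.33 (DCK, adjusted p = 0.106) to 0.95 ± 0.29 (TYMS, adjusted p = 0.106), with no member called, against 0.908% of all genes called lower and 0.174% higher. At an unadjusted p of 0.05, 2 members were lower and 2 higher, and DESeq2 called 1 lower. Without A375 6-day control replicate 2, 6 members were called higher and 2 lower, in a fit whose share of all genes called is not given here. The A375 controls themselves differed between the times in 5 members: DCK was higher at 6 days, as given above, and TK1 (-1.53 ± 0.26), DTYMK (-1.31 ± 0.23), CTPS1 (-0.60 ± 0.20) and RRM1 (-0.50 ± 0.17) were lower, against 24% and 23.8% of all genes. After the GC correction these 5 values were 0.75, -0.70, -0.53, -0.81 and -0.70, all past the test. Without A375 72-hour control replicate 2 the uncorrected RRM1 and CTPS1 calls were lost (-0.24 and -0.41, adjusted p = 0.437 and 0.230). RRM1 was also lost without either 72-hour CDK4/6i library, and CTPS1 without 6-day control replicate 1 (-0.35, adjusted p = 0.0929). Time, library set and the GC trend of the 6-day controls cannot be told apart in the uncorrected values, nor time and library set in the corrected ones.

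**Figure D4:**
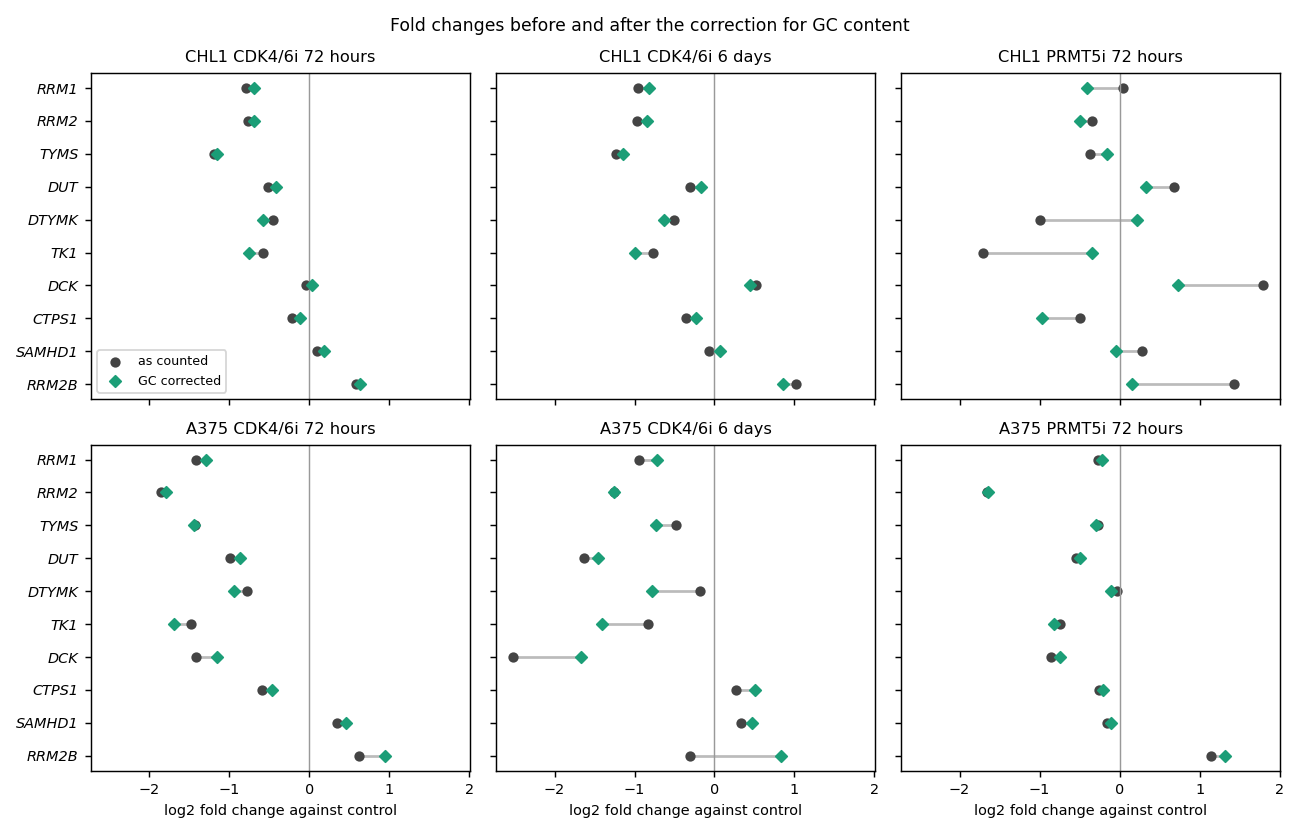
Log2 fold change against control of each member and RRM2B as counted (circles) and after the correction for GC content (diamonds) in the 6 treatment comparisons. The long connecting lines lie in CHL1 PRMT5i, where TK1 moves from -1.71 to -0.35 and DTYMK from -0.99 to 0.22, and in A375 CDK4/6i at 6 days, where DCK moves from -2.52 to -1.67.

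Genes of the wider nucleotide pathway were taken from 3 lists. In A375 CDK4/6i at 72 hours, of 21 other genes of dNTP and thymidylate supply, 3 fell and none rose, with a median log2 fold change of -0.38. Among 13 genes of de novo purine synthesis 3 fell and 1 rose (median -0.25), and none of 3 genes of de novo pyrimidine synthesis was called, where 7.11% of all genes were lower and 6.22% higher. The lowest value among the called genes of these lists was NT5M, a mitochondrial nucleotidase (-1.65 ± 0.33, adjusted p = 0.00366, and 0.0581 without CDK4/6i replicate 1), and the highest ADSSL1, an adenylosuccinate synthase (1.68 ± 0.29, adjusted p = 0.00130). After 6 days of CDK4/6i in A375, 4 of the 21 rose and 5 fell, as did 4 and 5 of the purine genes, and 2 pyrimidine genes rose, where 21.3% of all genes were lower and 21.8% higher. ADSSL1 had the largest rise (1.42 ± 0.28) and SLC25A36, a mitochondrial pyrimidine nucleotide carrier, the largest fall (-1.52 ± 0.26, and -0.57 with the GC correction). In A375 PRMT5i, where 1.74% of all genes were lower and 0.874% higher, the called genes of the lists were RRM2B and ADSSL1 (1.53 ± 0.29, adjusted p = 0.0117), and the ADSSL1 call was lost on leaving out any one of the 4 libraries compared (1.34 to 1.76, adjusted p = 0.0838 to 0.165).

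In CHL1, none of the 37 genes of the 3 lists was called by edgeR after 72 hours of CDK4/6i, where 2.72% of all genes were lower and 2.27% higher. At an unadjusted p of 0.05, 3 dNTP and 3 purine genes were lower and 1 dNTP gene higher, and DESeq2 called 1 purine gene lower and 1 dNTP gene higher. After 6 days 2 of the 21 dNTP genes rose and 3 fell, and 3 purine genes fell, among them ADSL, the adenylosuccinate lyase, at -0.79 ± 0.15 (adjusted p = 0.00608, and 0.0684 and 0.0520 without control replicate 1 or 2). RRM2B had the largest rise. Of all genes 7.8% were lower and 8.83% higher there. In CHL1 PRMT5i, 4 of the 21 rose and 10 fell, 4 purine genes rose and 4 fell, and 2 pyrimidine genes fell, where 27.6% of all genes were lower and 26.4% higher and the treated libraries carry the GC trend. The called values lay between SLC25A36 (1.98 ± 0.21, and 0.86 with the GC correction) and the nucleotidase NT5C (-1.92 ± 0.29, and -0.51 with the GC correction). The 5 proliferation genes taken were MKI67, PCNA, CCNA2, E2F1 and the CDK inhibitor CDKN1A. With CDK4/6i in CHL1, 3 of them fell at 72 hours (2.72% of all genes) and 3 at 6 days (7.8%). In A375 CDK4/6i at 72 hours 4 fell (7.11%) and 1 rose (6.22%), with values from -1.92 to 1.52. Of the same genes 3 fell and 1 rose in A375 CDK4/6i at 6 days (21.3% and 21.8% of all genes) and in CHL1 PRMT5i (27.6% and 26.4%). In A375 PRMT5i 2 fell (1.74%) and 1 rose (0.874%), with values up to 1.94.

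**Figure D5:**
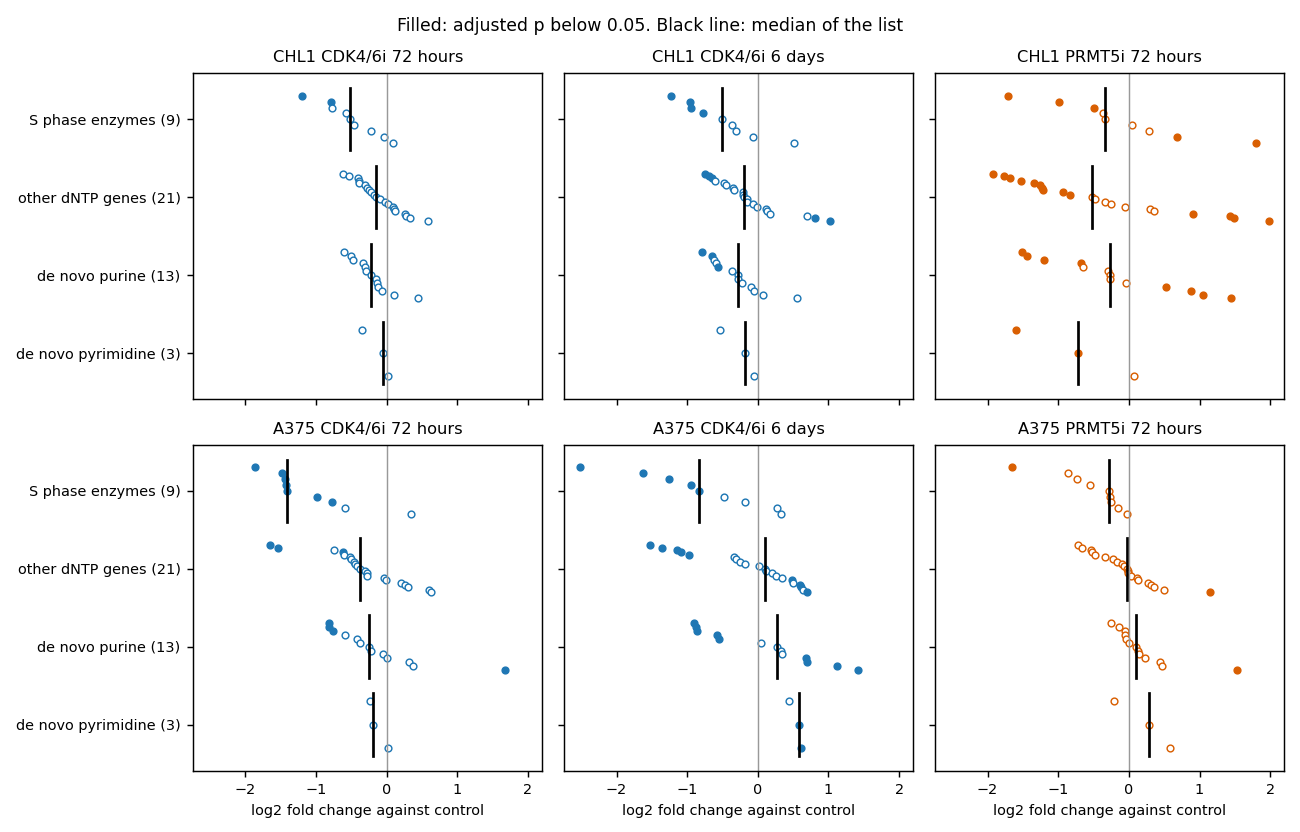
Log2 fold change against control of each gene (points, filled where the adjusted p was below 0.05) in the set of 9 enzymes and in 3 lists of other nucleotide genes, with the median of each list (black line), in the 6 treatment comparisons. At 72 hours of CDK4/6i in A375 the median lies at -1.42 for the 9 enzymes and at -0.38, -0.25 and -0.19 for the other lists.

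Across the 18 libraries, with each line's mean taken off log2(CPM + 1), the members fell along several patterns. The Pearson correlation was 0.91 between RRM1 and TYMS, 0.93 between TK1 and DTYMK and 0.83 between DUT and DCK, while it was -0.42 between DCK and DTYMK. SAMHD1 had no positive correlation with another member. These 18 points share groups, treatments and the GC trend, and the TK1 and DTYMK pair has the highest GC content of the 9, so the values are a description. The 5 genes with the pattern most like RRM2, of 15658 with a mean of at least 1 CPM, were NCAPG2 (0.95), FANCD2 (0.93), CDC25C (0.91), DYRK4 (0.91) and FANCI (0.90). For SAMHD1 they were DTX3L (0.87), JAK1 (0.85), CLTC (0.85), PARP14 (0.80) and CYBRD1 (0.79).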

How the data were processed

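Poly-A selected RNA from CHL1 and A375 cells was sequenced by the authors. According to the submitters' processing notes, reads were checked with FastQC 0.11.6, aligned with HISAT2 2.0.4 to GRCh37 (hg19), handled with SAMtools 1.18 and Picard 2.17.3, and counted per gene with HTSeq 0.11.2. The deposited table of 20705 genes in 18 libraries is titled as normalised, but it holds whole numbers whose library totals differ, so its values were treated as the raw counts made by the authors. The study's methods state that HTSeq was run with default settings and do not name the strand setting. The depth behind each value is the library total, from 16213475 to 37424081 counts.

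From these counts, edgeR 4.0.16 in R 4.3.3 was used with TMM scaling and the quasi-likelihood test, fitted per cell line to all its libraries (8 CHL1 or 10 A375) and to all 18 for differences between the lines. All 20705 genes were tested without a filter on low counts, and p-values were adjusted over them by the Benjamini-Hochberg method at a threshold of 0.05. All adjusted p-values are two-sided and come from this test. Standard errors and 95% confidence intervals come from the same fit. Alternatives were DESeq2 1.42.0, limma 3.58.1 (voom, and trend on log2(CPM + 1)), other scalings, a filter at 1 CPM in 2 libraries, other sets of libraries, a replicate block and each library left out in turn. The GC correction added to each library an offset from a loess curve (span 0.4) of log2 level on the GC content of the longest transcript, for the genes with a value, which were 87.3% of the 15658 genes averaging 1 CPM or more. The edgeR fit of the CHL1 libraries was tested on simulated counts, for CDK4/6i at 72 hours. It recovered 70 of 100 genes changed 2-fold and 99 of 100 changed 4-fold, and called 18 unchanged genes. The simulated counts held no PRMT5i response and no GC trend, so they do not cover what the PRMT5i libraries add to the spread in the real fit. The GC correction, the block and the other alternatives were not tested in this way. Replicate numbers come from the labels. In A375 at 72 hours the deviations of same-numbered libraries from their group means correlated at 0.218, 0.251 and 0.481 over the 3 pairs of groups, all above 0.1, so the numbers were taken to pair these 6 libraries and the blocked result is given where it changes a call. That pairing was read from the same libraries that were then fitted. The blocked fit called 15.4% of all genes lower in A375 PRMT5i, against 1.74% in the unblocked fit, and its p-values are to be read beside that share. In CHL1 the correlations ran from -0.336 to 0.444, and the numbers were taken as no more than a number.

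All 9 enzymes were named. Of 21 other dNTP genes found of 24 listed, 13 purine and 3 pyrimidine synthesis genes, the called gene with the largest rise and that with the largest fall in each comparison were named, with RRM2B throughout. The 5 genes most like RRM2 and SAMHD1 were taken by Pearson correlation. ENOSF1 and MOB1B were added after their values were seen, because their exons overlap TYMS and DCK. The enzymes and lists were chosen with earlier results of these data known. Promoter windows and sequences were taken from RefSeq (GRCh38.p14), and gene positions and overlaps from GENCODE in GRCh37.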

Additional observations from a re-analysis of the deposited data

Results flagged for a closer look

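Several enzymes responded differently in A375 and CHL1 by the edgeR test of the difference between the lines (A375 response minus CHL1 response, log2, 2 libraries a group). After 6 days of CDK4/6i the differences past the threshold were 0.77 for TYMS (adjusted p = 0.0458), -1.31 for DUT, -3.01 for DCK and -1.31 for RRM2B. Of all genes 12.4% were called lower and 9.51% higher in that comparison. The TYMS call was lost in most fits with a library left out, as given above. The A375 response there is against a 6-day control and the CHL1 response against a 72-hour control, and line and medium cannot be told apart. With the GC correction these values were 0.44, -1.30, -2.13 and -0.05.

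In the response to 72 hours of PRMT5i the differences past the threshold were -1.28 for RRM2, -1.19 for DUT, 1.00 for DTYMK, 1.01 for TK1 and -2.63 for DCK. After the GC correction they were -1.14, -0.81, -0.33, -0.45 and -1.45, so DTYMK and TK1 changed sign. In the uncorrected fit 18.8% of all genes were called lower and 22.1% higher. Line, medium and library set cannot be told apart there. No group had 4 or more libraries, so no single library was tested as an outlier.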

How the results depend on the processing

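For the 54 log2 fold changes of the 9 enzymes in the 6 treatment comparisons, the alternatives other than leaving out a library gave 747 values. Of these, 663 kept their side of the threshold, 17 lost a call, 64 gained one and 3 changed sign with a call before or after. Leaving out each library gave 427 of 486 values unchanged in this sense, 36 calls lost, 22 gained and 1 changed sign with a call. Sign changes between values without a call were counted as unchanged. RRM1 in CHL1 PRMT5i, for example, ran from -0.27 to 0.29 with a library left out. The depth and 2 libraries a group limit what a missed threshold shows. Total count scaling moved the median of all genes by -0.32 in CHL1 PRMT5i and 0.18 in A375 CDK4/6i at 6 days. Where no cause is named, the cause was not tested.

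The number of enzymes called moved as follows. Of 30 counts over all genes, 17 moved clearly with only the groups compared and 18 with the GC correction. With the replicate block 9 of these counts moved and 11 did not, and with each library left out 117 moved and 227 did not. The share of all genes in each fit is not given here, so a changed number of enzymes may go with a change over all genes. For CHL1 CDK4/6i at 72 hours (2 lower) it was 1 with voom, 0 with limma trend, 6 with only the groups compared and 4 with the GC correction. For CHL1 PRMT5i (3 lower, 2 higher) total counts gave 5 and 1, and the GC correction 1 and 1. For A375 CDK4/6i at 72 hours (0 higher) only the groups compared and the GC correction each gave 1, and at 6 days (0 higher) total counts and the GC correction each gave 1. For A375 PRMT5i (1 lower) DESeq2 gave 2, only the groups compared 4, only the 6 A375 libraries of 72 hours 4 and the GC correction 3. For the A375 response at 6 days against 72 hours (0 either way) DESeq2 gave 1 lower, and the 72-hour control used for both times gave 2 lower and 1 higher. For CHL1 PRMT5i against CDK4/6i (2 lower) limma trend, only the groups compared and the GC correction each gave 1. For A375 PRMT5i against CDK4/6i (2 higher, 0 lower) only the groups compared and the 6 libraries each gave 6 and 1, and the GC correction 4 and 1. For the line difference in CDK4/6i at 72 hours (0 lower) only the groups compared gave 4 and the GC correction 1. At 6 days (1 higher) median-of-ratios and upper quartile scaling, DESeq2, only the groups compared, the 72-hour control and the GC correction each gave 0, and total counts 2. For the line difference in PRMT5i (2 higher) the GC correction gave 1, for A375 against CHL1 controls (1 lower) only the groups compared and the GC correction each gave 2, and for the A375 controls by time (4 lower) only the groups compared gave 2. An alternative chosen after seeing the data, without the 4 libraries with a GC trend, gave 4 lower for CHL1 CDK4/6i at 72 hours, 4 lower for A375 PRMT5i, 5 higher and 1 lower for A375 PRMT5i against CDK4/6i, 1 lower for the line difference in CDK4/6i and 2 lower for the controls.

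The replicate block was used in the 8 CHL1 libraries, where the numbers did not pair the samples, and in the 6 A375 libraries of 72 hours, where they did. With the replicate block the counts were 1 higher in A375 CDK4/6i at 72 hours, 6 lower in A375 PRMT5i, 1 lower in CHL1 PRMT5i against CDK4/6i, 7 higher and 1 lower in A375 PRMT5i against CDK4/6i and 1 lower in the line difference in CDK4/6i. With the block and the GC correction together they were 5 lower in CHL1 CDK4/6i at 72 hours, 1 higher in CHL1 PRMT5i, 1 higher in A375 CDK4/6i at 72 hours, 6 lower in A375 PRMT5i, 1 lower in CHL1 PRMT5i against CDK4/6i, 7 higher and 1 lower in A375 PRMT5i against CDK4/6i, 3 lower in the line difference in CDK4/6i and 1 higher in that in PRMT5i.

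Some values changed sign. With the GC correction alone, and then with the block as well, DTYMK was at 0.22 and 0.22 in CHL1 PRMT5i. Against CDK4/6i in CHL1, DTYMK was at 0.80 and 0.80, TK1 at 0.40 and 0.40 and RRM2B at -0.47 and -0.47. In the line difference in PRMT5i, DTYMK was at -0.33 and -0.33, TK1 at -0.45 and -0.45 and RRM2B at 1.19 and 1.204. RRM1 in CHL1 PRMT5i was at -0.41 with the GC correction (adjusted p = 0.0842) and -0.42 with both together (adjusted p = 0.0256), and RRM2B in the A375 controls by time at -0.032 with the GC correction. In A375 CDK4/6i at 6 days RRM2B was at 0.84 with the 72-hour control and at 0.84 with the GC correction, and leaving out an A375 library put DTYMK between -0.56 and 0.34, the latter without 6-day control replicate 2. With the 72-hour control used for both times, the A375 response difference was -0.70 for DTYMK and -0.89 for TK1.

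Leaving out 1 library at a time gave these ranges of counts, lower then higher. CHL1 gave 0 to 4 and 0 to 0 with CDK4/6i at 72 hours, 1 to 5 and 0 to 1 at 6 days, 2 to 5 and 1 to 3 with PRMT5i, 0 to 0 both ways between times, and 1 to 2 and 4 to 5 between drugs. A375 gave 5 to 8 and 0 to 0 with CDK4/6i at 72 hours, 4 to 7 and 0 to 2 at 6 days, 0 to 4 and 0 to 0 with PRMT5i, 0 to 2 and 0 to 6 between times, 0 to 1 and 0 to 6 between drugs, and 2 to 4 and 1 to 1 between controls. The line differences gave 0 to 0 both ways at 72 hours of CDK4/6i, 2 to 2 and 0 to 3 at 6 days, 2 to 3 and 0 to 2 with PRMT5i, and 1 to 1 and 0 to 2 in controls.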

Other observations

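The summed level of the 9 enzymes was 1062 and 917 CPM in CHL1 controls, 679 and 685 with 72 hours of CDK4/6i, 726 and 557 with 6 days and 978 and 824 with PRMT5i. In A375 the sum was 828 and 1052 CPM in 72-hour controls, 424 and 444 with CDK4/6i and 584 and 634 with PRMT5i, and at 6 days 699 and 756 with DMSO and 427 and 407 with CDK4/6i.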
